A study of Capra hircus with 6 samples.

Results

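The transcripts described here are those of 10 genes of the Notch pathway, chosen by name from the 15944 genes in the deposited count table: the receptors NOTCH1, NOTCH2 and NOTCH3, the ligands JAG1, JAG2 and DLL1, and the target genes HES1, HEY1, HEY2 and HEYL. All 10 were listed, and 9 of them passed the filter on low counts, with HEYL left out. RNA-seq was performed on dermal papilla cells cultured from the secondary hair follicles of wild-type Albas cashmere goats (SHF-DPCs), taken from adult goats aged 3 years. The control group (3 libraries) received culture medium and the ATRA-treated group (3 libraries) received all-trans retinoic acid (ATRA) at 100 µM for 24 h. ATRA, made in the body from vitamin A, activates nuclear retinoic acid receptors. The methods state that the cells came from 3 independent animals, but not whether the same animals supplied both groups, and all libraries carry the same batch label.

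Notch signalling passes between touching cells. A ligand of the Jagged or Delta-like family on one cell binds a Notch receptor on its neighbour, the receptor is cut by an ADAM protease and then by γ-secretase, and the freed intracellular part enters the nucleus, where it joins the DNA-binding protein RBPJ and a Mastermind coactivator. The genes switched on in this way include the HES and HEY families, which encode basic helix-loop-helix repressors. In the hair follicle, the pathway is best known for guiding the differentiation of the epithelial cells that build the hair shaft and its sheaths.

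The libraries held between 35532339 and 38012771 counts each. Levels are given as normalized CPM, a gene's counts relative to its library's total after TMM scaling in edgeR, and the groups were compared by the quasi-likelihood test of edgeR, with Benjamini-Hochberg adjustment over 12588 tested genes. A gene was called at an adjusted p under 0.05. Among all tested genes, 40.9% were called higher and 38.7% lower with ATRA, so a call alone did not set a gene apart in this experiment. TMM factors averaged 0.847 for control libraries and 1.18 for ATRA libraries, and scaling by library size only moved the median log2 fold change (log2FC) of all tested genes from 0.04 to 0.52 and the calls to 62.9% higher and 22.7% lower. The summed level of 9 mesenchymal markers was between 82595 and 83582 CPM in the control libraries and between 4584 and 4923 CPM with ATRA, where 7 of the 9 were called lower. Most of the control sum was COL1A2 (mean 28514 CPM), COL1A1 (27440 CPM), VIM (19158 CPM) and COL3A1 (5922 CPM). TWIST1 and TWIST2 were not called (log2 fold changes of -0.14 and 0.02), and PDGFRB was lower by a log2 fold change of only -0.44. The summed level of 13 dermal papilla markers was between 8237 and 9138 CPM in the control libraries and between 158 and 171 CPM with ATRA. Of these markers, 9 were tested and 8 were called lower, while SOX18 was not called. WIF1, among the 8, could not have passed the filter on low counts on its ATRA libraries alone. SOX2, which did not pass that filter, went the other way on few reads, with 5, 0 and 2 counts in the control libraries and 10, 16 and 9 with ATRA. ACTA2, which encodes the α-SMA that the study stained to identify the cells, fell from 6582 to 8.37 CPM. VCAN fell from 1641 to 32.4 CPM. The summed markers of keratinocytes, melanocytes and leukocytes were low but higher in every ATRA library than in any control library, at 3.18 to 5.01 against 5.37 to 5.97 CPM for keratinocytes, 16.1 to 17.6 against 32.2 to 39.0 CPM for melanocytes, and 9.15 to 12.8 against 41.2 to 44.0 CPM for leukocytes. Of the tested markers, KRT10, MITF, CD68 and CD14 were called higher and PMEL lower, while PTPRC, TYR and KRT1 were not listed. The keratinocyte sum rose through KRT10, whereas other keratins that did not pass the filter went the other way. KRT14 had 20, 14 and 10 counts in the control libraries and 3, 0 and 0 with ATRA. KRT5 had 2, 7 and 3 counts against 0, 0 and 0. The part of these markers in the results was not tested. PROM1, which encodes the papilla marker CD133, had at most 1 count in any library, and ALPL and CORIN had at most 1 count as well. In these bulk cultures, fewer cells of a type and less RNA per cell cannot be told apart.

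Of the 9 tested genes, 3 were called higher with ATRA (NOTCH1, JAG2 and HEY2) and 5 lower (NOTCH2, NOTCH3, JAG1, HEY1 and HES1), while DLL1 was not called. With library size only, 5 were called higher and 4 lower, because HES1 and DLL1 were then called higher. The median log2FC of the 9 genes was -0.22, against 0.04 for all tested genes. The control and ATRA libraries did not overlap for 7 of the 9 genes, against 80.1% of all tested genes. Past the thresholds of the study, |log2FC| above 1 with an unadjusted p under 0.05, were 4 of the 9, namely NOTCH3, JAG1, JAG2 and HEY2, against 31.0% of all tested genes. With the t.test function that the study names, run here on log2(CPM + 1), 3 of them were past these thresholds and JAG2 was not. Receptors, ligands and targets each included genes that moved in opposite directions.

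**Figure D1:**
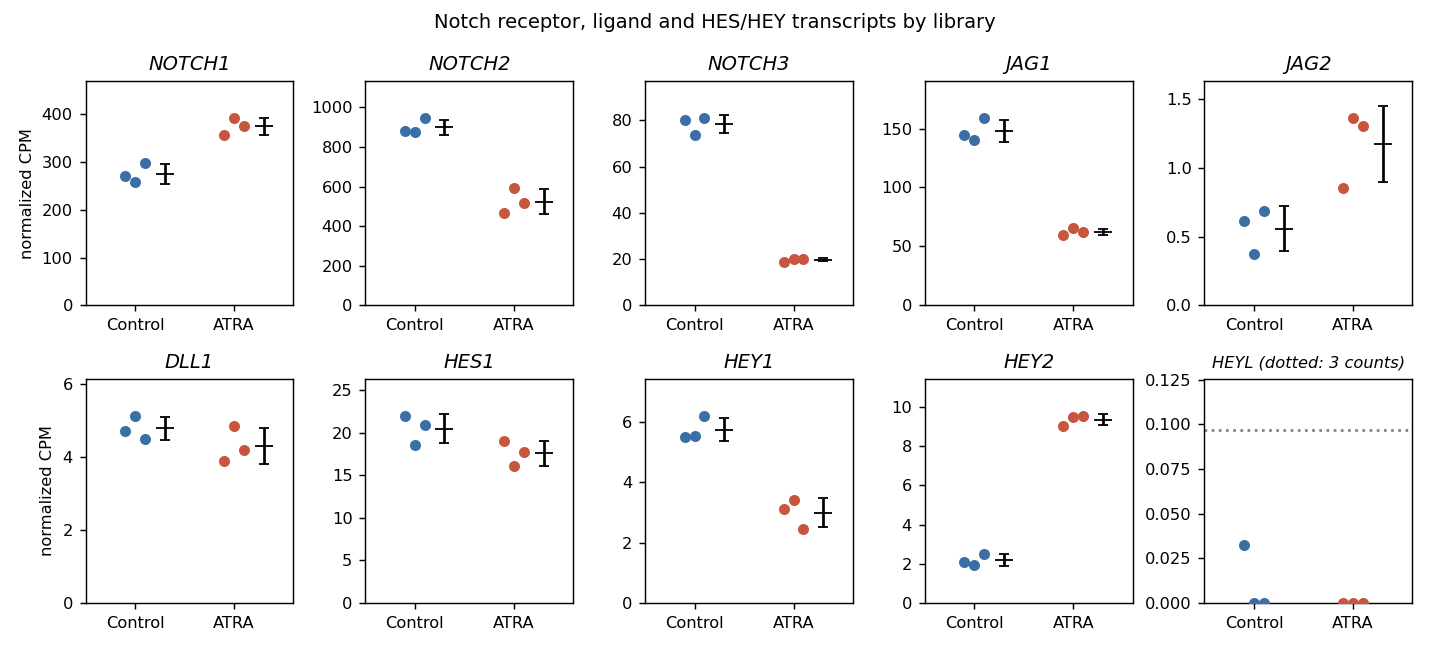
Normalized CPM (vertical axes, linear, each panel on its own scale) of the 10 genes in the 3 control and 3 ATRA libraries; points are libraries, and the bars beside them are the mean ± SD (n = 3), which is not drawn for HEYL. NOTCH3, JAG1, NOTCH2 and HEY1 lie lower and HEY2, NOTCH1 and JAG2 higher in every ATRA library, DLL1 and HES1 overlap, and HEYL stays under the level of 3 counts.

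The receptor transcripts changed unequally. NOTCH1 encodes the most broadly studied of the 4 mammalian receptors. Its level was 269.9, 259 and 298 normalized CPM in the control libraries and 357, 392 and 377 in the ATRA libraries. Every ATRA library lay above every control library. NOTCH1 rose 1.36-fold, from 276 ± 20.4 to 375 ± 17.3 CPM (SD, n = 3 each), with a log2FC of 0.45 (standard error 0.0626, edgeR adjusted p = 3.31e-06). The change was modest for this experiment, since 59.9% of tested genes had a larger absolute log2FC.

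NOTCH2 encodes a close relative of NOTCH1. It had 881, 874 and 944 CPM in the control libraries and 464, 592 and 516 CPM with ATRA, so the groups stood apart although the ATRA libraries were spread more widely. ATRA replicate 2 was the highest of its group for NOTCH2 and for NOTCH1. NOTCH2 was 1.72-fold lower with ATRA, at 899.8 ± 38.8 against 524 ± 64.5 CPM (SD, n = 3 each), a log2FC of -0.78 (standard error 0.0749, edgeR adjusted p = 2.55e-08). Without ATRA replicate 2 the log2FC was -0.89.

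NOTCH3, the receptor best known from pericytes and vascular smooth muscle, showed the largest fall among the 10 genes. Its level was 80.1, 73.8 and 80.9 CPM in the control libraries and 18.9, 20.1 and 19.9 CPM in the ATRA libraries, with little spread in either group. NOTCH3 was 3.99-fold lower with ATRA (78.3 ± 3.90 against 19.6 ± 0.648 CPM, SD, n = 3 each), a log2FC of -1.998 (standard error 0.0700, edgeR adjusted p = 6.31e-15). Only 13.6% of tested genes had a larger absolute log2FC. The pericyte and smooth muscle list, which includes NOTCH3, summed to between 458 and 464 CPM in the control libraries and between 32.4 and 36.1 CPM in the ATRA libraries. Of its 8 genes, 4 were tested, and NOTCH3, CSPG4 and DES were called lower while MYH11 was not called. DES had only 16, 18 and 14 counts in the control libraries and 3, 6 and 12 with ATRA. It could not have passed the filter on its ATRA libraries alone. Among the 4 not tested, RGS5 had at most 5 counts in any library, MCAM at most 4 and KCNJ8 at most 1, and ABCC9 had 0, 1 and 0 counts in the control libraries and 5, 10 and 13 counts with ATRA. The part of such cells in the fall of NOTCH3 was not tested.

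NOTCH4, the fourth receptor, which is known mainly from endothelium, was measured on few reads. It had 35, 23 and 46 counts in the control libraries and 146, 135 and 109 counts with ATRA, a log2FC of 1.47 (standard error 0.236). The endothelial list summed to between 0.903 and 1.24 CPM in the control libraries and between 6.19 and 9.16 CPM with ATRA. Most of that rise was PECAM1, at 0 counts in every control library and 206 to 340 with ATRA, while TEK was also called higher (log2FC 0.87), VWF was not called (log2FC 0.06), KDR had 5, 6 and 10 counts in the control libraries and 2, 1 and 0 with ATRA, and CDH5 had at most 1 count. EMCN, CLDN5 and TIE1 were not listed in the table. Whether endothelial cells had a part in the NOTCH4 values was not tested.

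The balance between receptors can be read without any scaling, as the ratio of their counts in the same library. The log2 ratio of NOTCH2 to NOTCH1 counts was 1.71, 1.76 and 1.66 in the control libraries and 0.38, 0.60 and 0.45 in the ATRA libraries, a difference of -1.23. The log2 ratio of NOTCH3 to NOTCH1 moved further, from a mean of -1.81 ± 0.0649 to -4.26 ± 0.0246 (SD, n = 3 each), a difference of -2.44. NOTCH3 also fell relative to NOTCH2, with a difference of -1.21. Each of these ratios separated the groups completely (two-sided exact permutation test, p = 0.1, also after adjustment over 7 ratios, which is the lowest value that 2 groups of 3 libraries can give). These ratios share genes and are not independent of each other.

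Among the ligands, JAG1 was the one with the deepest counts. It encodes Jagged1, a ligand with established roles in hair follicle epithelium. JAG1 had 145, 140.3 and 159 CPM in the control libraries and 59.4, 65.2 and 61.8 CPM in the ATRA libraries. All ATRA libraries lay well under all control libraries. JAG1 was 2.38-fold lower (148 ± 9.52 against 62.1 ± 2.90 CPM, SD, n = 3 each), a log2FC of -1.25 (standard error 0.0637, edgeR adjusted p = 1.89e-12). With library size only its log2FC was -0.77, short of the fold threshold but still called.

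JAG2, which encodes the second Jagged ligand, moved the other way on a small number of reads. It had 19, 12 and 22 counts in the control libraries and 37, 60 and 54 counts in the ATRA libraries. The groups did not overlap, at 0.556 ± 0.164 against 1.17 ± 0.277 CPM (SD, n = 3 each). The log2FC was 1.08 (standard error 0.316, edgeR adjusted p = 0.00468), with a 95% interval from 0.41 to 1.74. The log2FC of JAG2 dropped under 1, although the call remained, without Control replicate 2 (0.84), without ATRA replicate 2 (0.95) and without ATRA replicate 3 (0.99). With the t.test function that the study names, run here on log2(CPM + 1), the log2FC of JAG2 was 0.48, under the fold threshold. A pseudocount of 1 added to the mean CPM, without a test, also gave 0.48. The study does not state the scale or pseudocount of its own test.

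DLL1, a Delta-like ligand, was not called. Its level was 4.74, 5.13 and 4.51 CPM in the control libraries and 3.89, 4.85 and 4.20 CPM with ATRA, and the groups overlapped. The log2FC was -0.15 (standard error 0.143, edgeR adjusted p = 0.337), with a 95% interval from -0.45 to 0.15. With library size only it was 0.33 (adjusted p = 0.0435). The remaining Delta-like ligands were close to undetected, with at most 1 count in any library for DLL3 and for DLL4. The non-canonical ligand gene DLK2 was not called (log2FC 0.60, standard error 0.368), and DLK1 was not listed. Within libraries, the log2 ratio of JAG2 to JAG1 counts rose by 2.32 and that of DLL1 to JAG1 by 1.09, both with the groups apart (two-sided exact permutation test, p = 0.1, the lowest value possible).

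**Figure D2:**
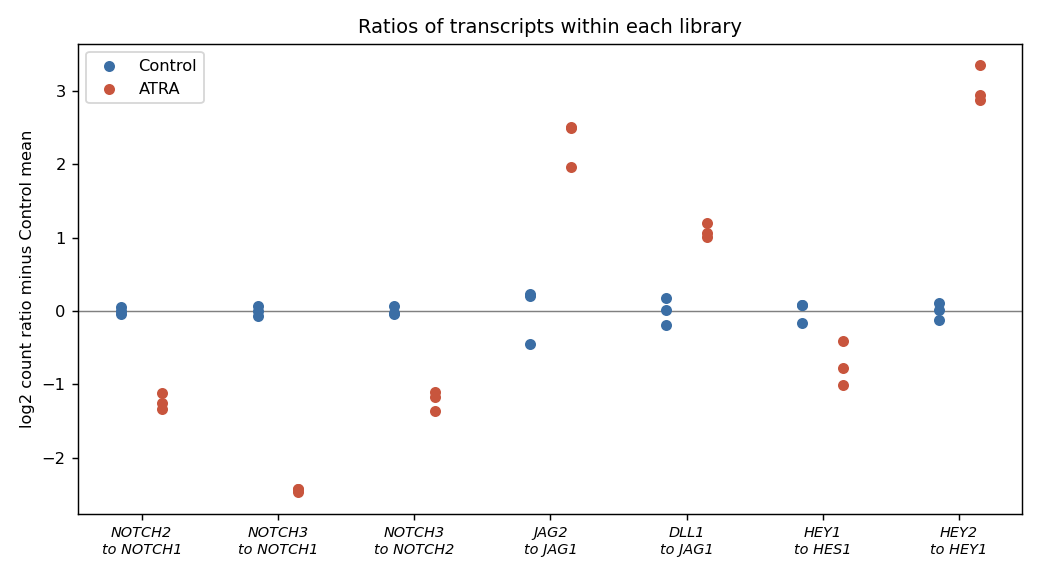
Log2 ratio of the counts of 2 genes in the same library, minus the mean of the control libraries (vertical axis), for 7 pairs of genes; each point is 1 library, control on the left and ATRA on the right of each pair. The ATRA points lie apart from the control points for all 7 pairs, and the largest shifts are HEY2 to HEY1 (3.06) and NOTCH3 to NOTCH1 (-2.44).

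The target genes diverged most within the HEY family. HEY2 encodes a repressor known from heart and vessel development. It had 2.09, 1.92 and 2.52 CPM in the control libraries, from 65, 62 and 81 counts, and 9.05, 9.52 and 9.55 CPM in the ATRA libraries, from 391, 420 and 395 counts. Every ATRA library was above every control library. HEY2 rose 4.30-fold (2.18 ± 0.311 against 9.37 ± 0.282 CPM, SD, n = 3 each), a log2FC of 2.10 (standard error 0.140, edgeR adjusted p = 1.08e-10). Of all tested genes, 12.6% had a larger absolute log2FC.

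HEY1, its closest relative, fell. It had 5.51, 5.53 and 6.20 CPM in the control libraries and 3.10, 3.40 and 2.46 CPM in the ATRA libraries, and the groups stood apart. HEY1 was 1.92-fold lower (5.75 ± 0.389 against 2.99 ± 0.478 CPM, SD, n = 3 each), a log2FC of -0.94 (standard error 0.154, edgeR adjusted p = 2.05e-05). Without ATRA replicate 2 the log2FC was -1.05, which passes the fold threshold of the study.

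The log2 ratio of HEY2 to HEY1 counts was -1.39, -1.52 and -1.29 in the control libraries and 1.54, 1.48 and 1.95 in the ATRA libraries. HEY1 therefore had the larger count of the pair in each control library and HEY2 in each ATRA library. The difference of 3.06 did not depend on scaling and was the largest of the 7 ratios computed (two-sided exact permutation test, p = 0.1, the lowest value possible). HEYL, the third HEY gene, had 1 count in Control replicate 1 and 0 counts in the other libraries. Its level was below that of 3 counts, which was at most 0.0967 CPM in any library, so a difference was not detectable at this depth.

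HES1, the most widely used readout of Notch signalling, stayed close to its control level. It had 681, 601 and 672 counts in the control libraries and 822, 709 and 731 counts in the ATRA libraries, so that the deposited counts themselves were higher with ATRA. After TMM scaling these became 21.9, 18.6 and 20.9 CPM against 19.0, 16.1 and 17.7 CPM, and the groups overlapped. The log2FC was -0.22 (standard error 0.0916, edgeR adjusted p = 0.0356), and 79.6% of tested genes had a larger absolute log2FC. This call was lost with upper-quartile scaling (adjusted p = 0.161) and turned with library size only (log2FC 0.26, adjusted p = 0.0141), where the median of all tested genes was 0.52. It was also lost without Control replicate 1 (adjusted p = 0.136), Control replicate 3 (adjusted p = 0.0825), ATRA replicate 2 (adjusted p = 0.0885) or ATRA replicate 3 (adjusted p = 0.0572). Relative to HES1 in the same library, HEY1 fell, with log2 ratios of -1.99, -1.74 and -1.75 in the control libraries and -2.61, -2.24 and -2.84 in the ATRA libraries.

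**Figure D3:**
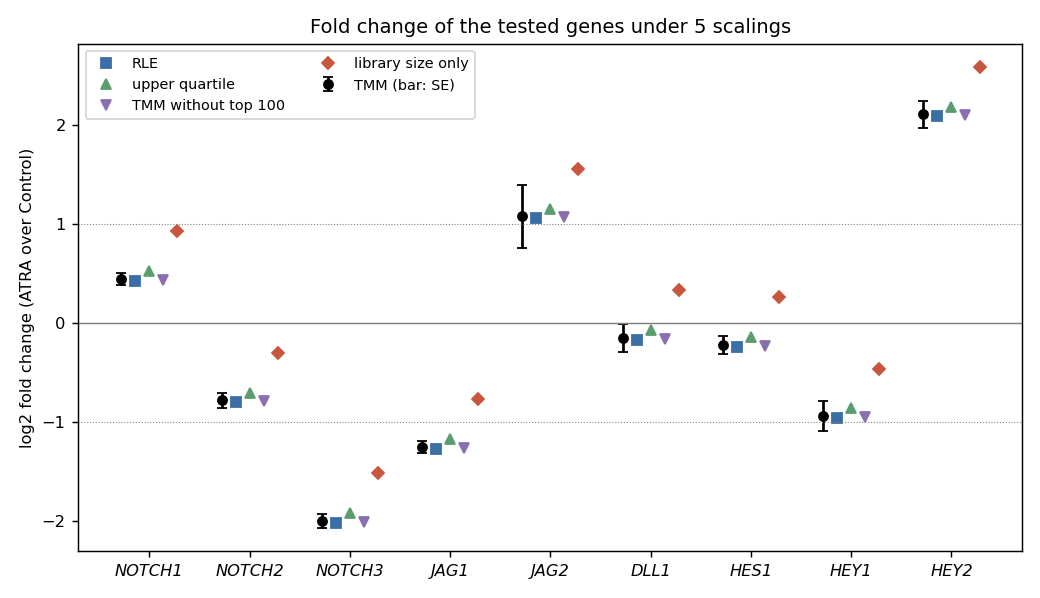
Log2FC of the 9 tested genes (vertical axis, ATRA over control) under 5 scalings; black circles are TMM with the standard error as bars, and dotted lines mark a log2FC of 1 in either direction. NOTCH3, JAG1, NOTCH2 and HEY1 stay lower and HEY2, JAG2 and NOTCH1 higher under each scaling, whereas HES1 and DLL1 cross 0 with library size only.

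Other HES genes and NRARP, which encodes a Notch-induced feedback inhibitor, were read from few counts. The 4 that passed the filter, HES2, HES4, HES7 and NRARP, were all called higher and kept that direction under each scaling. HES2, HES7 and NRARP could not have passed the filter on their control libraries alone. Their calls therefore cannot be read against the 40.9% of all tested genes called higher. HES4 had 30, 44 and 36 counts in the control libraries and 112, 117 and 89 counts with ATRA (log2FC 1.10, standard error 0.220). HES7, best known from the segmentation clock of the embryo, had 6, 5 and 6 counts in the control libraries and 38, 55 and 33 counts with ATRA (log2FC 2.43, standard error 0.386). HES2 had 10, 16 and 4 counts against 37, 55 and 49 (log2FC 1.79, standard error 0.381). All 3 genes stood apart between the groups but their mean level stayed under 3 CPM in both groups.

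NRARP had 1, 3 and 2 counts in the control libraries and 30, 27 and 12 counts in the ATRA libraries. The ratio of its summed scaled counts was 8.53 (exact 95% interval from 3.73 to 24.1, counting error only). HES6 had 1 count in all control libraries together and 13, 10 and 8 counts with ATRA, and did not pass the filter. HES5 was not listed in the table.

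The rest of the pathway was examined by role, over 65 other genes fixed as lists, of which 62 were listed in the table and 56 were tested. Of these 56 genes, 28 were called higher and 20 lower with ATRA, against 40.9% and 38.7% of all tested genes, and with library size only 43 were higher and 9 lower. Past the fold threshold were 9 higher (13.7% of all tested genes) and 6 lower (17.3% of all tested genes). The 28 and the 9 include HES2, HES7 and NRARP, and the 20 and the 6 include NEURL1B. These genes could not have passed the filter on the libraries where they were low, so the pooled counts cannot be set strictly against those shares. Apart from the call of NEURL1B, the counts by role that follow are to be read beside the 40.9% called higher and 38.7% called lower among all tested genes.

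The enzymes that add sugars to the extracellular repeats of Notch receptors were lower or not called. Of 8 tested, 6 were called lower and none higher, although 2 of the 6 turned to positive values with library size only. EOGT, which adds N-acetylglucosamine to these repeats, fell from 68.2 to 17.3 CPM (log2FC -1.98, standard error 0.0783). POFUT1, the O-fucosyltransferase on whose product the Fringe enzymes act, fell from 128 to 43.8 CPM (log2FC -1.54, standard error 0.0639). XXYLT1, a xylosyltransferase that extends O-glucose, fell from 15.9 to 4.93 CPM (log2FC -1.69, standard error 0.111). LFNG, a Fringe enzyme that tunes which ligands a receptor responds to, had a log2FC of -0.88 (standard error 0.0698), while MFNG had at most 3 counts in any library.

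The proteases that process the receptor showed smaller changes. Of 9 tested genes, 6 were called higher and 2 lower, none past the fold threshold, and both of the lower ones turned to positive values with library size only.

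Among the genes for ubiquitination and sorting of ligands and receptors, 5 of 12 tested were called higher and 4 lower. NUMBL and NEURL1B were among the 4 lower, and NUMBL turned to a log2FC of 0.25 with library size only. NEURL1B, a ubiquitin ligase that promotes the uptake of Notch ligands, had 647, 703 and 674 counts in the control libraries and 2, 0 and 0 counts in the ATRA libraries, the widest gap in the pathway. The ratio of its summed scaled counts was 1364-fold in favour of the control group (exact 95% interval from 377 to 11269, counting error only). MIB2, another ligand-directed ubiquitin ligase, rose from 45.6 to 102 CPM (log2FC 1.16, standard error 0.0660). AAK1, an endocytic kinase, rose from 16.2 to 34.0 CPM (log2FC 1.07, standard error 0.107), and DTX3L, a ligase of the Deltex family, fell from 39.5 to 12.0 CPM (log2FC -1.71, standard error 0.0926).

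All 9 genes of the nuclear complex were tested, and 3 were called higher and 6 lower. MAML2, a Mastermind coactivator, fell from 73.4 to 26.7 CPM (log2FC -1.46, standard error 0.0895). RBPJ itself had 60.3 CPM in the control group and 51.2 CPM with ATRA, a log2FC of -0.24 (standard error 0.0707) that turned to 0.24 with library size only. KAT2A and SNW1, also among the 6 called lower, turned to 0.08 and 0.32 with that scaling. Of 12 tested corepressor genes, 9 were called higher and 2 lower, and CTBP1 of the lower ones turned to 0.33 with library size only. TLE3, a Groucho-type corepressor of the kind that HES proteins recruit, rose from 36.6 to 81.6 CPM (log2FC 1.16, standard error 0.0660). SPEN, a corepressor that binds RBPJ, rose from 79.7 to 161 CPM (log2FC 1.02, standard error 0.0676).

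**Figure D4:**
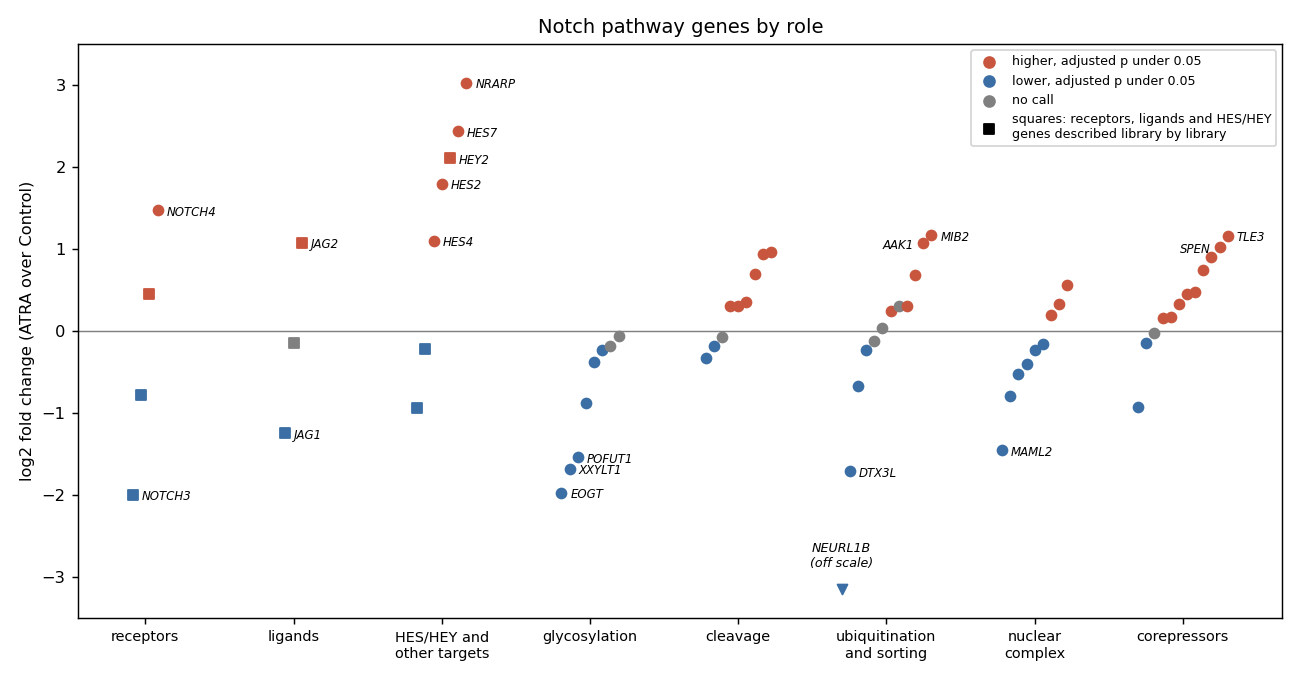
Log2FC (vertical axis, ATRA over control) of the tested genes of the Notch pathway, grouped by role and without DLK2; squares are the receptors, ligands and HES/HEY genes described library by library, circles the other pathway genes, and colour gives the call. No glycosylation enzyme is called higher (6 of 8 lower), 9 of 12 corepressors are higher, and NEURL1B lies below the axis range. Among all tested genes, 40.9% are called higher and 38.7% lower.

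The genes whose scaled profile over the 6 libraries was closest to that of a receptor, a ligand or a target were found by Euclidean distance of centred log2 CPM among 10675 genes. Closest to JAG1 were AFAP1 (distance 0.0328), IGF1R (0.0546) and ST6GAL1 (0.0666). Closest to NOTCH3 were SPATS2L (0.0612), TRABD2B (0.0805) and PAM (0.0953). Closest to HES1 were PRR3 (0.0467), CDC42EP1 (0.0680) and CEP95 (0.0722). With 2 groups of 3 libraries, such a profile is mostly the size of the difference between the groups.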

How the data were processed

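Poly(A)-enriched RNA libraries were sequenced, and the authors cleaned the reads with fastp and TrimGalore. The authors deposited 1 table of raw read counts per gene, not normalized, with 1 column per library. The submitters' processing notes name HISAT2, featureCounts and DESeq2 without versions. The genome build and strand setting are not given in the sources used here, so no coordinates or sequences are printed. Levels are compared between groups, not between genes, because no transcript lengths were used.

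The filterByExpr function of edgeR kept 12588 of 15944 genes, which were TMM-scaled and compared by the robust quasi-likelihood test of edgeR, two-sided, on 3 control and 3 ATRA libraries without covariates. The t.test function named by the study was run as an alternative, since the values are counts, on log2(CPM + 1), a scale chosen here. Standard errors are the absolute log2FC over the square root of F. A floor of 3 counts was used. Exact permutation tests compared 7 ratios (pseudocount 0.5). No replicate pair matched within sampling noise (chi-square over degrees of freedom between 5.01 and 18.4). P-values measure the spread between these cultures.

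The 10 genes and the lists were chosen with earlier results of these data known. Pathway genes were named if called with |log2FC| above 1. LFNG, MFNG, RBPJ, KAT2A, SNW1, CTBP1, NUMBL, HES6, HES5, DLL3, DLL4, DLK1 and DLK2 were added once their values had been seen. TLE1 was matched by its symbol. A result for another gene of the pathway is left out. Tests were checked on simulated data in which 200 of 12588 genes changed. Far more genes were called in the real data, so that check does not bear on the choice of scaling. Versions were R 4.3.3, edgeR 4.0.16, DESeq2 1.42.0, Python 3.11.15 and matplotlib 3.10.9.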

Additional observations from a re-analysis of the deposited data

How the results depend on the processing

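Over 16 alternatives each, NOTCH1, NOTCH2, NOTCH3, JAG1, JAG2, HEY1 and HEY2 kept their direction, and kept their call wherever a test was run. With library size only, 5 of the 10 genes were called higher, the log2FC of DLL1 reversed to 0.33 and that of HES1 to 0.26, and 43 of the other pathway genes were called higher and 9 lower. Requiring |log2FC| above 2 left 1 gene, HEY2. With an unequal-variance t.test on log2(CPM + 1), the call of HES1 was lost (adjusted p = 0.119). With a pseudocount of 1 added to the mean CPM, the log2FC was 0.48 for JAG2 and 1.71 for HEY2. With any single library left out, the log2FC of HEY2 lay between 2.01 and 2.22 and that of NOTCH3 between -2.05 and -1.98. Deviations of same-numbered libraries from their group mean correlated at 0.299, -0.0290 and -0.236, and those of differently numbered libraries between -0.332 and 0.363. With 3 libraries per group, such correlations cannot decide whether the same animals supplied both groups. With the replicate number as a block, 3 of the genes were called higher and 5 lower, as without it. HEYL could not be tested, and shares within each gene family were not computed, because no transcript lengths were used. JAG2, HES2, HES7 and NRARP are limited by their few counts.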
